A study of Mus musculus with 10 samples.

Results

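The genes described here are 9 markers and regulators of retinal ganglion cell (RGC) identity: the Brn3 genes Pou4f1, Pou4f2 and Pou4f3, the Islet genes Isl1 and Isl2, the Ebf genes Ebf1 and Ebf3, and the general RGC markers Rbpms2 and Thy1. They were taken by symbol from the 34254 genes that were counted in every library, of which 26033 had a UMI in any library, and all 9 were found.

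RGCs were profiled by droplet scRNA-seq in 6 libraries from uninjured retinas and in 4 libraries from retinas collected 2 weeks after optic nerve crush (ONC), an injury to the axons of RGCs. All mice were wild-type 129S1/SvImJ animals of both sexes at 12 weeks of age, and 10 retinas were pooled per batch. Macrophages were first removed on antibody plates, and RGCs were then captured on plates with an antibody against Thy1, so the protein of 1 of the 9 genes was used to collect the cells. The sources disagree on the protocol: the labels give the v3 kit, sequencing on a NovaSeq and no removal step besides that of macrophages, the paper's methods give the v2 kit, a HiSeq and depletion of amacrine cells too, and the series text adds a sort by flow cytometry. The question of the comparison is how the genes that define RGCs stand after axon injury.

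Among the 527 cells of injured 3 and the 471 cells of injured 4, 421 barcodes were the same, while any other 2 libraries had at most 1 in common. Their sums showed no difference beyond sampling noise (median chi-square over noise 0.985, against 1.47 to 36.2 for every other pair). They were therefore averaged to 1 sample, injured 3/4, which left 9 samples, 6 uninjured and 3 injured. Close pairs were also seen for uninjured 1 with 2 (1.82), 3 with 4 (1.87) and 5 with 6 (1.47), and for injured 1 with 2 (2.28). Nothing in the sources states that libraries come from separate animals, so p-values measure only the spread between these samples. Xist, which is expressed in female cells, was detected in 62.1% of injured 1 cells, in 67.4% of injured 2 cells and in no more than 0.569% in any remaining library. The reporter mCherry was detected in 7.99%, 15.0%, 86.0% and 84.3% of cells for injured 1 to 4 in turn and in 0 uninjured cells, although the labels name no vector. The part of sex and of mCherry in the results below was not tested, and the injured samples are given one by one. The deposited tables held 1683 uninjured and 1609 injured cells, with 98, 103, 363, 651, 267 and 201 cells in uninjured 1 to 6 and 338 and 273 in injured 1 and 2. The paper gives the same uninjured number but fewer injured cells. Total UMIs, each of which marks 1 captured RNA molecule, ranged from 2839693 to 23180399 in uninjured and from 4698799 to 8860536 in injured libraries. Median depth per cell was 20437 to 34337 UMIs for uninjured and 11257 to 14695 UMIs for injured libraries. Malat1, a nuclear RNA that is used to judge RNA quality, took a median of 1.72% to 4.82% of a cell's UMIs in uninjured and 6.37% to 7.78% in injured libraries. The median share of ribosomal protein UMIs was 2.51% to 4.50% in uninjured and 5.29% to 6.04% in injured libraries. That of mitochondrial UMIs was 2.84% to 5.63% and 1.48% to 3.15%.

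As background, Brn3 factors are POU homeodomain proteins that act after RGCs leave the cell cycle: Pou4f2 is needed for the differentiation and survival of most RGCs, while Pou4f1 and Pou4f3 act later and shape dendrites and subtypes. Isl1, a LIM homeodomain factor, acts beside Pou4f2 in newborn RGCs, Isl2 marks a subset of RGCs that includes cells projecting to the opposite side of the brain, and Ebf factors, which carry a zinc-containing DNA-binding domain and a helix-loop-helix region, act downstream in the same programme. Rbpms2 is an RNA-binding protein found in nearly all RGCs, and Thy1 is a surface glycoprotein of RGC somata and axons whose loss is a long-used sign of RGC damage.

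Of the 9 genes, 6 differed between conditions: Pou4f1, Pou4f2, Isl1, Isl2 and Rbpms2 were lower after ONC and Ebf3 was higher, whereas Pou4f3, Ebf1 and Thy1 did not pass the test. The largest fold change among the 9 was the fall of Rbpms2. UMIs of all cells in a sample were added up, and levels are given as CPM, relative to the library total scaled with edgeR's TMM factors. Markers of other cell types are given as CPM of the plain library total, without these factors. Levels within classes of cells use UMIs after thinning, described below, also without them. Conditions were compared with the quasi-likelihood test of edgeR, and p-values were adjusted by Benjamini-Hochberg over 14234 genes at a threshold of 0.05. Over all genes 6237 passed (43.8%), 3032 of them higher (21.3%) and 3205 lower (22.5%) after ONC, so a call is common in this comparison and the 6 of 9 is read as a description. The groups did not overlap in CPM for 6 of the 9, 5 lower and 1 higher, against 42.9% of all genes (20.9% lower and 21.9% higher). The median log2 fold change was -0.90 for the 9 genes and -0.03 for all genes. A sum over cells cannot tell fewer cells of a type from less RNA per cell.

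**Figure D1:**
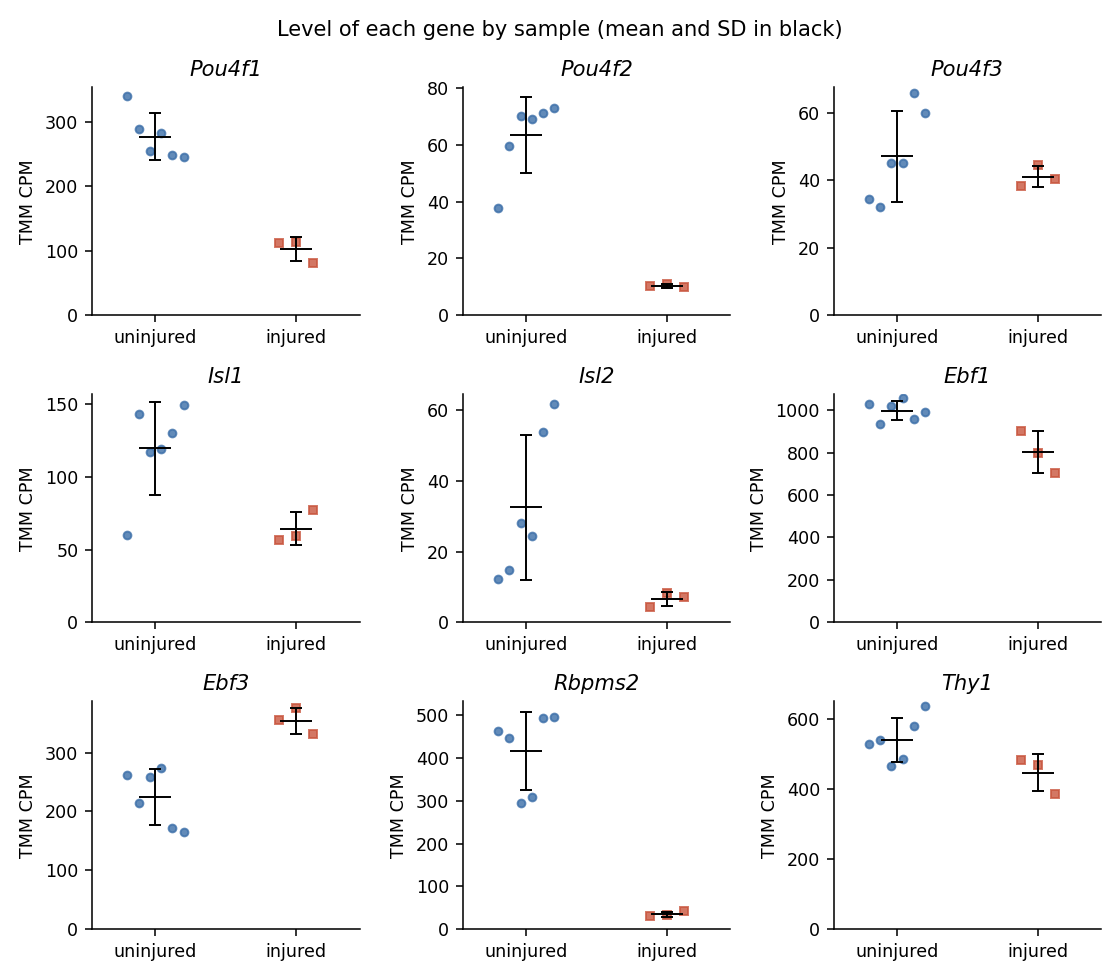
TMM-scaled CPM of each of the 9 genes in 6 uninjured samples (blue circles) and 3 injured samples (red squares), with the mean and SD in black. Each vertical axis is linear and starts at 0. Rbpms2 lies between 296 and 496 CPM in uninjured samples and at or under 42.1 CPM in injured samples, and Ebf3 is the gene whose 3 injured samples all lie above its uninjured samples.

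Pou4f1, which encodes Brn3a, was measured at 245 to 341 CPM in uninjured samples (median 269) and at 113, 113 and 81.4 CPM in injured 1, injured 2 and injured 3/4. Every injured sample lay below every uninjured sample. The means were 277 ± 36.3 CPM (SD, n = 6) and 102 ± 18.2 CPM (SD, n = 3), and the log2 fold change was -1.44 (standard error 0.17, edgeR adjusted p = 3.73e-05). Pou4f2, which encodes Brn3b, was measured at 37.7 to 73.2 CPM in uninjured samples (median 69.5), and at 10.2, 11.01 and 9.79 CPM in the injured samples. The groups lay far apart, although uninjured 1 was well below the other uninjured samples. Its means of 63.5 ± 13.5 CPM (SD, n = 6) and 10.3 CPM (n = 3) gave a log2 fold change of -2.63 (standard error 0.22, edgeR adjusted p = 2.66e-06), the 359th lowest among the 14234 genes. In cells holding 3 to 5% Malat1 the fall of Pou4f2 was smaller (-1.97, edgeR adjusted p = 1.89e-05). Pou4f3, which encodes Brn3c, was measured at 31.9 to 65.8 CPM in uninjured samples (median 45.2) and at 38.4, 44.5 and 40.2 CPM in injured samples. All 3 injured samples lay inside the uninjured range. The log2 fold change of Pou4f3 was -0.20 with a 95% interval from -0.68 to 0.27 (standard error 0.22, edgeR adjusted p = 0.479), which leaves room for a fall or a small rise. Its sign changed without uninjured 5 and 6 (0.03, edgeR adjusted p = 0.887), a setting chosen after the data were seen, since those samples held the most Pou4f3.

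The makeup of the Brn3 transcripts therefore differed between conditions. Pou4f1 made up 64.5% to 82.5% of Brn3 UMIs in uninjured samples (median 70.1%) and 69.9%, 67.1% and 61.9% in injured 1, injured 2 and injured 3/4, with overlapping groups. The share of Pou4f2 was 9.14% to 19.4% in uninjured samples (median 17.9%) and 6.31%, 6.53% and 7.51% in injured samples, and that of Pou4f3 was 8.32% to 17.0% (median 11.8%) and 23.8%, 26.4% and 30.5%. For Pou4f2 all injured samples lay below the uninjured samples, and for Pou4f3 all lay above. Ratios between genes within a sample do not depend on the library total, although equal capture across libraries was not tested. The 6 ratios given here were chosen after the values were seen, so no p is given for them. The log2 ratio of Pou4f3 over Pou4f2 moved from -0.45 ± 0.32 (SD, n = 6) to 1.99 ± 0.06 (SD, n = 3), a difference of 2.44 with no overlap. The log2 ratio of Pou4f3 over Pou4f1 moved from -2.60 ± 0.57 to -1.31 ± 0.27, a difference of 1.29 with no overlap. For Pou4f2 over Pou4f1 it was -2.15 ± 0.54 and -3.30 ± 0.21, a difference of -1.15, and here uninjured 1 (-3.18) lay within the injured range.

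**Figure D2:**
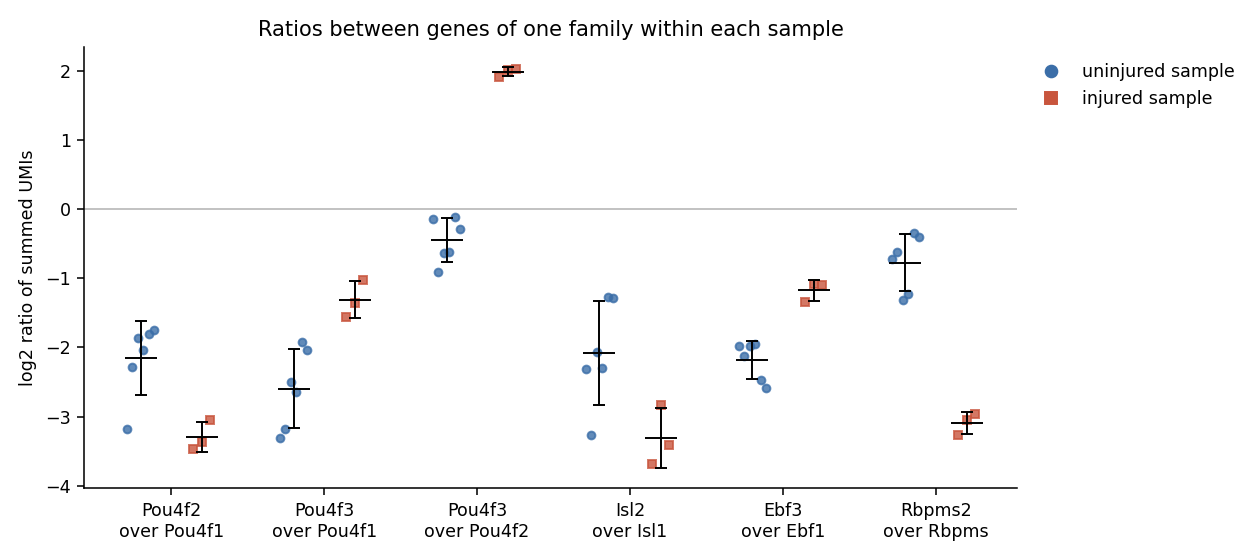
Log2 ratio of the summed UMIs of 2 genes within each sample, for 6 uninjured samples (blue circles) and 3 injured samples (red squares), with the mean and SD in black. Ratios of Pou4f3 over Pou4f2, Pou4f3 over Pou4f1, Ebf3 over Ebf1 and Rbpms2 over Rbpms do not overlap between conditions, while Pou4f2 over Pou4f1 and Isl2 over Isl1 overlap.

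On chromosome 14, Pou4f1 (ENSMUSG00000048349.11) spans 104699112 to 104705504 (reverse strand) in the GENCODE annotation of GRCm39 (mm39), with 3 exons in its canonical transcript. The lncRNA gene D130079A08Rik begins 2338 bases downstream on the same strand, and whether its 27145 UMIs include read-through from Pou4f1 is uncertain. Pou4f2 (ENSMUSG00000031688.6) spans 79159638 to 79163278 of chromosome 8 (reverse strand) with 2 exons. Promoters, from 250 bases before to 50 bases after the start of the canonical transcript, were searched on both strands of 21757 protein-coding genes for TAAT, the core that homeodomain proteins bind, for ATAATTAAT, the core of a Brn3 binding sequence, and for CCCNNGGG, the core of the Ebf palindrome. TAAT was held by 57.7% of all promoters, ATAATTAAT by 0.313% and CCCNNGGG by 15.1%. Among the 9 genes, TAAT was held by Isl1 (2 matches) and Ebf1 (1 match), ATAATTAAT by 0, and CCCNNGGG by Isl2, Thy1 and Ebf3, the last of these at position 24 after the start. The 250 bases before the start are shown for the 4 transcription factor genes that fell after ONC, and for Ebf3, which rose, so that the genes that moved together can be read beside each other. Matches before the start are in capitals (TAAT in Isl1, CCCNNGGG in Isl2). They are sequence descriptions, and binding was not measured. The sequences lie at chr14:104705505-104705754 (reverse strand) for Pou4f1, chr8:79163279-79163528 (reverse) for Pou4f2, chr13:116446236-116446485 (reverse) for Isl1, chr9:55448182-55448431 (forward) for Isl2 and chr7:136916219-136916468 (reverse) for Ebf3, all in GRCm39 and all written 5′ to 3′ along the gene.
Pou4f1: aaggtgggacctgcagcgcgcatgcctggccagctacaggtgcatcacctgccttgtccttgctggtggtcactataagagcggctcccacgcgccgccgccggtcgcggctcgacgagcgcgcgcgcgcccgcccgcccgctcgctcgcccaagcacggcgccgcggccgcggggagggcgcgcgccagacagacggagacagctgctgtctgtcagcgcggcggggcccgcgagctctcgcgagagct
Pou4f2: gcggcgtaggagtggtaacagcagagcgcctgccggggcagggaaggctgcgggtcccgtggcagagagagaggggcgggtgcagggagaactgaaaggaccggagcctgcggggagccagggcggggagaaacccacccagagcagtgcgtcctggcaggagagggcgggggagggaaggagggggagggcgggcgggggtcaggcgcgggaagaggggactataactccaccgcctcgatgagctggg
Isl1: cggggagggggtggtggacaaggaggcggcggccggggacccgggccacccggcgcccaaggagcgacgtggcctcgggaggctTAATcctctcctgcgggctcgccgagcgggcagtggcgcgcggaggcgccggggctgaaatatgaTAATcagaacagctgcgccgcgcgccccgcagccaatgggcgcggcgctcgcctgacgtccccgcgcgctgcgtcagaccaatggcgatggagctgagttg
Isl2: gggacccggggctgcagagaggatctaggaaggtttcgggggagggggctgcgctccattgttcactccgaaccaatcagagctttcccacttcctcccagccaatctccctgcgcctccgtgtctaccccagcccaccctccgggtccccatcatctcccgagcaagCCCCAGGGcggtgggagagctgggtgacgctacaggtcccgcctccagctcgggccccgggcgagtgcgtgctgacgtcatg
Ebf3: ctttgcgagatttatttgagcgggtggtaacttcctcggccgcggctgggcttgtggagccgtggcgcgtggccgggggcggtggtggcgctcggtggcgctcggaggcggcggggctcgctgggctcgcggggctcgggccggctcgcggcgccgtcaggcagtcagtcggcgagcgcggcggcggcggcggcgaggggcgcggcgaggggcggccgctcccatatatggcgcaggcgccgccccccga
Over the whole 300 bases searched, GC content was 74.3% for Pou4f1, 69.7% for Pou4f2, 69.3% for Isl1, 67.7% for Isl2 and 76.3% for Ebf3, against a median of 54.3% over all promoters.

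Within cells, depth differed between conditions, so each cell was thinned to 8000 UMIs. This left 1654 uninjured cells (29 shallower cells were left out) and 1376 injured cells (233 left out). On this scale a Pou4f1 UMI was found in 75.9% to 84.2% of uninjured cells (median 79.4%) and in 51.3%, 47.4% and 40.1% of the cells of injured 1, injured 2 and injured 3/4. For Pou4f2 the shares were 16.8% to 35.9% (median 33.4%) and 5.88%, 6.77% and 6.67%. In both genes the groups did not overlap (exact p = 0.0238 by two-sided permutation, the lowest possible for 6 samples against 3). For Pou4f3 the shares were 13.7% to 29.2% (median 21.5%) and 20.9%, 23.9% and 24.1%, with full overlap (exact p = 0.738). These exact tests and those below count the close pairs of libraries as separate samples. None was run with similar libraries summed, where fewer samples would raise the lowest possible p. Over all 9 genes the thinned shares did not overlap for 5, all lower after ONC (Pou4f1, Pou4f2, Isl2, Rbpms2 and Thy1), against 33.8% of the 14234 genes in either direction (19.1% lower and 14.7% higher). Adjusted over all 14234 genes the smallest p was 0.0705, so none of these shares passed an adjusted threshold of 0.05 in the exact test. The planned adjustment, over the 9 genes alone, would have passed these 5 shares, and it was not used because the genes were chosen with earlier results known. Over all genes 5703 had an exact p under 0.05 before adjustment. Without thinning the mean shares were 92.4% ± 2.07 (SD, n = 6) and 63.5% ± 6.87 (SD, n = 3) for Pou4f1, 56.0% ± 10.2 and 13.2% ± 0.941 for Pou4f2, and 39.1% ± 4.67 and 35.8% ± 2.71 for Pou4f3. Positive cells also held fewer Brn3 UMIs: with thinning, the mean number per positive cell was 2.93 ± 0.247 and 1.69 ± 0.0789 for Pou4f1, 1.60 ± 0.129 and 1.10 ± 0.0337 for Pou4f2, and 1.76 ± 0.209 and 1.46 ± 0.0426 for Pou4f3, in uninjured and injured samples. Over the 9 genes these means did not overlap in 8, 7 lower and 1 higher after ONC, against 17.7% of the 12605 tested genes with a positive cell in every library (7.0% lower and 10.7% higher).

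**Figure D3:**
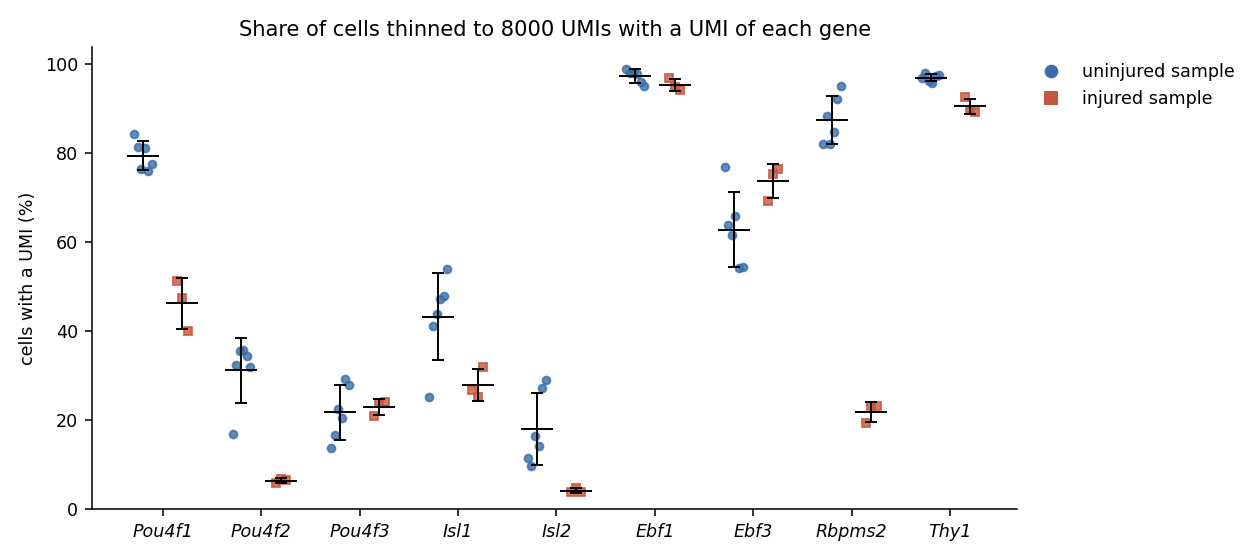
Share of cells (%) with at least 1 UMI of each gene after thinning every cell to 8000 UMIs, in 6 uninjured samples (blue circles) and 3 injured samples (red squares), with the mean and SD in black. Rbpms2 falls from 81.9% to 95% in uninjured samples to 19.3% to 23.1% in injured samples, while Pou4f3 and Ebf3 overlap between conditions.

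Free RNA in droplets can give UMIs to cells that do not express a gene, and cells of other retinal types, which would show its level, were not set apart here. The authors selected RGCs, yet only 388 of 651 cells in uninjured 4 and 269 of 363 in uninjured 3 were free of 3 or more markers of another class. These were the lowest shares of all libraries, against for example 183 of 201 in uninjured 6 and 454 of 471 in injured 4. Markers were counted before thinning, and uninjured 4 and 3 had the deepest cells (median 34337 and 31996 UMIs). Whether the markers in the remaining cells came from other cells, from doublets or from free RNA was not tested. Opn4 is the melanopsin gene of intrinsically photosensitive RGCs. As a guide, in uninjured cells with at least 2 UMIs of Opn4, 0 of 46 had a UMI of Pou4f3 or of Isl2 after thinning. The 95% exact binomial limit for this share is 7.71%, and the Isl2 shares of injured cells, at most 4.78%, lie below it. In the same 46 cells Pou4f2 was found in 26.1%, so they give no such guide for that gene.

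Patterns of the Brn3 genes were counted within thinned cells. UMIs of all 3 genes were found in 1.05% to 8.30% of uninjured cells (mean 5.41% ± 2.48, SD, n = 6) and in 0.654%, 0.797% and 0.683% of injured cells. Pou4f1 with Pou4f2 alone fell from 18.4% ± 3.63 to 2.22% ± 0.341 of cells. Cells with Pou4f3 and neither of the others made up 3.18% ± 1.14 of uninjured cells and 9.80%, 9.16% and 11.6% of injured cells. Cells with none of the 3 made up 8.85% to 10.8% of uninjured cells (mean 10.1% ± 0.794) and 36.3%, 39.4% and 44.5% of injured cells. In these 4 patterns the groups did not overlap (exact two-sided p = 0.0238 for each). The share of cells with both genes of a pair was divided by the product of their single shares in the library. Mean values in uninjured and injured samples were 0.968 and 0.998 for Pou4f1 with Pou4f2 and 0.985 and 1.17 for Pou4f1 with Pou4f3. For Pou4f2 with Pou4f3 they were 1.05 and 0.781. The patterns thus mostly restate the shares of single genes and are not read as separate groups of cells. Pou4f1 with Pou4f3 alone was found in 11.8% ± 4.28 and 11.6% ± 1.38 (exact p = 1.00), Pou4f1 alone in 43.8% ± 10.6 and 31.7% ± 5.79 (exact p = 0.0714), Pou4f2 alone in 5.96% ± 3.00 and 3.04% ± 0.373 (exact p = 0.119), and Pou4f2 with Pou4f3 alone in 1.38% ± 0.560 and 0.467% ± 0.416 (exact p = 0.0476). Without thinning this last pattern turned, to 0.139% ± 0.217 and 0.899% ± 0.270 (exact p = 0.0238), in a setting that also brings back the shallower cells, and the cause was not tested. Across the 16 patterns of the Brn3, Islet and Ebf genes, 6 did not overlap, 2 higher and 4 lower after ONC, where 33.8% of single genes did not overlap in their thinned shares. With Benjamini-Hochberg adjustment over the 16 patterns, 0 passed 0.05 in the exact permutation test (smallest adjusted p = 0.0635), and 8 had an exact p under 0.05 before it. Uninjured 1 stood apart here too, and without it 11 patterns did not overlap.

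**Figure D4:**
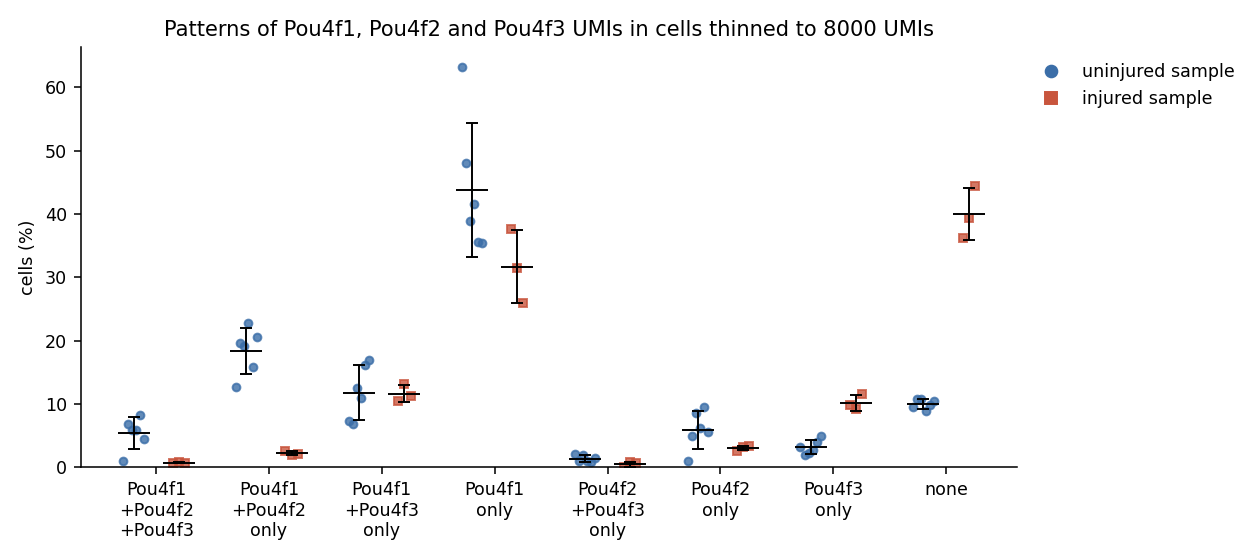
Share of thinned cells (%) with each of the 8 patterns of Pou4f1, Pou4f2 and Pou4f3 UMIs, in 6 uninjured samples (blue circles) and 3 injured samples (red squares), with the mean and SD in black. Cells with none of the 3 lie between 8.85% and 10.8% in uninjured samples and between 36.3% and 44.5% in injured samples.

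Both Islet genes were called lower after ONC. Isl1, needed for the differentiation of most RGCs, was measured at 60.0 to 150 CPM in uninjured samples (median 125) and at 56.5, 59.1 and 77.2 CPM in injured samples. The groups overlapped, because uninjured 1 (60.0 CPM) lay among the injured samples while the other uninjured samples were at 117 CPM or more. The log2 fold change of Isl1 was -0.90 (standard error 0.25, edgeR adjusted p = 0.0116), and adjusted p ranged from 4.17e-04 to 0.451 over 29 alternatives. The call was lost without injured 1 (-0.81, edgeR adjusted p = 0.0611) or injured 2 (-0.84, edgeR adjusted p = 0.0559), where the fold hardly moved, and in cells holding 3 to 5% Malat1, where Isl1 was at -0.37 (edgeR adjusted p = 0.451). Isl2, the LIM homeodomain factor of an RGC subset, was measured at 12.1 to 61.6 CPM in uninjured samples (median 26.2) and at 4.38, 8.31 and 7.24 CPM in injured samples. All injured samples lay below all uninjured samples, among which uninjured 5 and 6 held 53.9 and 61.6 CPM and the other 4 held 28.0 CPM or less. The log2 fold change of Isl2 was -2.30 (standard error 0.53, edgeR adjusted p = 0.00422), and without uninjured 5 and 6, a setting chosen after the data were seen, it was -1.68 (edgeR adjusted p = 0.00119). In cells holding 3 to 5% Malat1 Isl2 was at -1.13 and did not pass (edgeR adjusted p = 0.0794), the highest of 29 alternatives, whose lowest was 1.81e-05. The log2 ratio of Isl2 over Isl1 was -2.08 ± 0.75 (SD, n = 6) and -3.31 ± 0.44 (SD, n = 3), with overlap because uninjured 2 (-3.27) was low.

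In thinned cells, Isl1 UMIs were found in 25.3% to 54.0% of uninjured cells (median 45.6%) and in 26.8%, 25.1% and 31.9% of injured cells (exact p = 0.0714). Without uninjured 1, whose share was the lowest of the uninjured samples, the exact p was 0.0357, the smallest that 5 samples against 3 allow. Isl2 UMIs were found in 9.80% to 29.0% of uninjured cells (median 15.3%) and in 3.92%, 4.78% and 3.81% of injured cells, with no overlap (exact p = 0.0238). The groups overlapped for Isl2 with 4000 UMIs per cell (11.1% ± 7.003 and 2.29% ± 0.959, exact p = 0.0476) and with at least 2 UMIs as detection (6.13% ± 5.23 and 0.735% ± 0.437, exact p = 0.0952). Without thinning the shares were 57.7% ± 11.6 (SD, n = 6) and 37.6% ± 1.69 (SD, n = 3) for Isl1, and 31.9% ± 10.4 and 8.15% ± 2.03 for Isl2. Cells with both genes made up 8.49% ± 5.32 of uninjured and 1.50% ± 0.734 of injured cells, and cells with Isl2 alone 9.56% ± 3.18 and 2.68% ± 0.656, both with no overlap (exact p = 0.0238). Isl1 alone was found in 34.7% ± 6.95 and 26.5% ± 3.51 (exact p = 0.119) and neither gene in 47.2% ± 11.9 and 69.4% ± 3.05 (exact p = 0.0476). Isl1 UMIs per positive cell were 2.12 ± 0.187 and 1.68 ± 0.0596, with no overlap, and those of Isl2 were 1.39 ± 0.262 and 1.17 ± 0.0833, with overlap.

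Isl1 is also expressed by bipolar and starburst amacrine cells, so their markers are given beside it. Of 7 bipolar markers 6 had a UMI, Vsx1 had 0, and their summed level was 0.506 to 7.03 CPM in a sample, with Pcp2 the most abundant at a mean of 1.14 CPM. The 5 starburst markers summed to at most 3.69 CPM, with Megf10 the most abundant at a mean of 0.482 CPM. Both sums were close to 0 CPM, and their means were lower after ONC. The bipolar sum was 3.65 ± 2.19 CPM in uninjured and 0.787 ± 0.279 CPM in injured samples. The starburst sum was 1.61 ± 1.31 and 0.60 ± 0.30 CPM. The 7 amacrine markers all had UMIs and summed to 294, 254, 287, 328, 190 and 178 CPM in uninjured 1 to 6 and to 213, 170 and 103 CPM in the injured samples, and the 6 Müller glia markers to 148 ± 32.6 and 107 ± 12.0 CPM. That last sum joins opposite moves, since Dkk3 was at 68.7 to 117 CPM in uninjured and 10.7 to 18.7 CPM in injured samples, while Glul was at 37.4 to 49.6 and 73.7 to 89.0 CPM. Without the cells that held 3 or more markers of another class the log2 fold changes were nearly the same: -0.87 for Isl1, -2.44 for Isl2, -1.43 for Pou4f1, -2.64 for Pou4f2, 0.70 for Ebf3 and -3.58 for Rbpms2. On chromosome 13, Isl1 (ENSMUSG00000042258.15) spans 116434817 to 116446235 (reverse strand), and on chromosome 9 Isl2 (ENSMUSG00000032318.13) spans 55445956 to 55453464 (forward strand), each with 6 exons. Isl2 overlaps the antisense gene Gm17226 (44 UMIs in all libraries) over 1340 bases, and the sources used here do not say whether counting used the strand, so counts of such pairs are uncertain to that extent.

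Of the Ebf genes, Ebf3 was called higher after ONC and Ebf1 was not called. Ebf1 was measured at 936 to 1057 CPM in uninjured samples (median 1004) and at 901, 800 and 705 CPM in injured samples. All injured samples lay below all uninjured samples, by a small margin in injured 1. Its log2 fold change of -0.32 (95% interval -0.63 to 0.00, standard error 0.14) did not pass the threshold (edgeR adjusted p = 0.0976), and it passed in 6 of 29 alternatives, with adjusted p from 0.00765 to 0.351 and log2 fold changes between -0.40 and -0.21. Among those 6 were DESeq2's test (adjusted p = 0.0102), limma-voom (adjusted p = 0.0320) and, chosen after the data were seen, the fit without uninjured 5 and 6 (edgeR adjusted p = 0.0301). Ebf3 was measured at 165 to 273 CPM in uninjured samples (median 237) and at 354, 376 and 331 CPM in injured samples. Every injured sample was above every uninjured sample, and uninjured 5 and 6 were the lowest. Ebf3 rose with a log2 fold change of 0.66 (standard error 0.18, edgeR adjusted p = 0.0120). Without injured 2 the change was 0.62 (adjusted p = 0.0506), just short of the threshold. The call was lost as well with similar libraries summed (0.62, adjusted p = 0.109), and where only cells holding 3 to 5% Malat1 were kept it was -0.12 (adjusted p = 0.695), out of a range of 0.00137 to 0.695 over 29 edgeR, DESeq2 and limma fits. Malat1 shares moved with condition, and that last setting kept 7 and 8 cells in uninjured 5 and 6, so the part of RNA quality in the rise of Ebf3 was not tested further. The log2 ratio of Ebf3 over Ebf1 rose from -2.18 ± 0.28 (SD, n = 6) to -1.17 ± 0.15 (SD, n = 3), with no overlap.

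Ebf1 UMIs were found in 95% to 98.9% of thinned uninjured cells (median 97.9%) and in 96.7%, 94.8% and 94.2% of injured cells (exact p = 0.0952), and how much of this came from free RNA was not bounded for Ebf1. Ebf3 UMIs were found in 54.1% to 76.8% of uninjured cells (median 62.7%) and in 69.3%, 75.3% and 76.4% of injured cells. Here uninjured 1 was above every injured sample, and the exact p was 0.0952 with it and 0.0357 without it. With 4000 UMIs per cell the shares of Ebf3 were 45.5% ± 7.01 (SD, n = 6) and 61.4% ± 1.26 (SD, n = 3), with no overlap (exact p = 0.0238). Without thinning they were 81.0% ± 5.15 and 84.1% ± 2.44 for Ebf3 and 98.9% ± 0.765 and 97.4% ± 0.381 for Ebf1. UMIs per positive cell rose from 2.91 ± 0.447 to 4.22 ± 0.434 for Ebf3 and were 8.48 ± 0.617 and 6.64 ± 0.709 for Ebf1, with no overlap in either gene. Cells with both genes made up 60.6% ± 9.38 of uninjured and 69.3% ± 2.32 of injured cells (exact p = 0.167), Ebf1 alone 36.7% ± 8.06 and 25.9% ± 3.65 (exact p = 0.0714), Ebf3 alone 2.24% ± 1.28 and 4.37% ± 1.52 (exact p = 0.0714), and neither 0.472% ± 0.472 and 0.393% ± 0.346 (exact p = 0.881). Ebf1 (ENSMUSG00000057098.16) spans chromosome 11 from 44508138 to 44898918 on the forward strand and Ebf3 (ENSMUSG00000010476.17) chromosome 7 from 136795402 to 136916218 on the reverse strand, with 16 exons each. Antisense genes lie inside both (Gm12158 with 492 UMIs in Ebf1, Gm45278 with 28 and Gm10578 with 295 UMIs in Ebf3).

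Of the RGC markers, Rbpms2 was called lower after ONC and Thy1 was not called. Rbpms2 was measured at 296 to 496 CPM in uninjured samples (median 455) and at 30.5, 34.2 and 42.1 CPM in injured samples. The lowest uninjured samples, uninjured 3 (296 CPM) and uninjured 4 (309 CPM), were still far above every injured sample. Its log2 fold change of -3.55 (standard error 0.25, edgeR adjusted p = 6.65e-07) was the 151st lowest of 14234 genes, and it stayed between -3.72 and -3.20 over 29 alternatives, all past the threshold. Rbpms2 UMIs were found in 81.9% to 95% of thinned uninjured cells (median 86.4%) and in 19.3%, 23.1% and 23.1% of injured cells (exact p = 0.0238), and without thinning in 94.7% ± 2.64 (SD, n = 6) and 33.6% ± 2.73 (SD, n = 3). A positive thinned cell held 3.95 ± 0.733 UMIs in uninjured and 1.35 ± 0.131 in injured samples. Rbpms, the related RNA-binding protein gene that is the usual RGC marker, was at 699 ± 53.6 and 302 ± 23.3 CPM, a fold change of -1.21 in log2 (edgeR adjusted p = 3.86e-05). The paper also used Rbpms to identify RGCs, and how much this sets its level was not tested. The log2 ratio of Rbpms2 over Rbpms was -0.77 ± 0.41 (SD, n = 6) in uninjured and -3.09 ± 0.16 (SD, n = 3) in injured samples, with no overlap. Rbpms2 (ENSMUSG00000032387.17) spans 65536351 to 65567819 of chromosome 9 (forward strand), with 8 exons.

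Thy1 was measured at 466 to 638 CPM in uninjured samples (median 534) and at 484, 469 and 387 CPM in injured samples. Injured 1 and 2 lay at the lower end of the uninjured range and injured 3/4 below it. The log2 fold change was -0.27 (95% interval -0.61 to 0.07, standard error 0.15, edgeR adjusted p = 0.177), and it passed the threshold in 2 of 29 alternatives, with the mean of per-cell CPM (-0.51, limma adjusted p = 0.00992) and in libraries 1 to 4 with a term for the replicate (-0.25, edgeR adjusted p = 0.0440). The last fit counts injured 3 and 4 apart although they share cells, and Thy1 did not pass there without the term (edgeR adjusted p = 0.0724) or with similar libraries summed (edgeR adjusted p = 0.384). Thy1 UMIs were found in 95.8% to 98.0% of thinned uninjured cells (median 97.0%) and in 92.5%, 89.6% and 89.2% of injured cells, a small difference with no overlap (exact p = 0.0238). Without thinning these shares were 99.9% ± 0.151 (SD, n = 6) and 92.8% ± 2.93 (SD, n = 3), and UMIs per positive thinned cell were 4.64 ± 0.284 and 3.58 ± 0.283. Because cells were captured by Thy1 protein, cells that had lost it would be missing from every library, and how much this sets the shares was not tested. The T cell markers Cd3e, Cd3d and Ptprc summed to at most 3.37 CPM in any sample. Thy1 (ENSMUSG00000032011.7), on the same chromosome and strand, spans 43954332 to 43959880, with 4 exons.

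Counting the 7 transcription factors together, a thinned uninjured cell held UMIs of 3.54 ± 0.160 of them (SD of samples, n = 6; lowest sample 3.27, highest 3.70) and an injured cell 2.77 ± 0.0168 (SD, n = 3; 2.75, 2.78 and 2.77). The samples did not overlap, and this held with 4000 UMIs per cell (2.72 and 2.16), without thinning (4.57 and 3.40) and with at least 2 UMIs counted as detection (2.44 and 1.85). Cells with 5 or more factors were seen in every uninjured sample, for example 8.42%, 2.11% and 0% of cells with 5, 6 and 7 factors in uninjured 1 and 17.0%, 4.74% and 2.37% in uninjured 5. In injured libraries 1.95% to 3.48% of cells held 5 factors and at most 0.327% held 6.

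Among the 36 pairs of the 9 genes, detection within a library was tied in a stable direction for some. Both genes were found in a thinned cell more often than expected, and with odds ratios above 1, in all 6 uninjured samples for 6 pairs (Pou4f1 with Isl2 and with Rbpms2, Pou4f2 with Isl1, Pou4f3 with Ebf3 and with Rbpms2, and Isl2 with Rbpms2). By the same measures they were found less often in all 6 for another 5 pairs (Pou4f1 with Isl1, Pou4f2 with Ebf3, Isl1 with Ebf3 and with Rbpms2, and Ebf3 with Rbpms2). Mean log2 odds ratios in uninjured samples were 2.75 ± 1.40 (SD, n = 6) for Pou4f1 with Rbpms2, 1.49 ± 1.03 for Pou4f2 with Isl1, -1.49 ± 0.80 for Pou4f1 with Isl1 and -1.03 ± 0.45 for Isl1 with Ebf3. Of these 11 pairs, 5 kept their direction in all 3 injured samples as well: Pou4f1 with Rbpms2 (0.44 ± 0.22, SD, n = 3) stayed above 1, and Pou4f1 with Isl1 (-0.63 ± 0.31), Pou4f2 with Ebf3 (-0.77 ± 0.51), Isl1 with Ebf3 (-2.16 ± 0.49) and Ebf3 with Rbpms2 (-1.13 ± 0.37) stayed below. Isl1 with Rbpms2 went from -1.15 ± 0.47 in uninjured samples, all 6 below 0, to 0.96 ± 0.73 in injured samples, all 3 above 0. Isl2 with Rbpms2 was at 1.36 ± 0.85 and -1.02 ± 1.43, but with Isl2 in under 5% of injured cells the latter rests on too few cells to give a direction. Pou4f2 was found in 5.88%, 6.77% and 6.67% of injured cells, so the direction of Pou4f2 with Ebf3 there rests on few cells too. These odds describe cells of shared libraries, the cells differ in type, and no p is given.

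Levels also varied among RGC classes marked by other genes. A class was taken as cells with at least 2 UMIs of a marker after thinning and compared with cells that held 0, and classes can overlap. Levels compared between positive and negative cells are CPM of their thinned UMIs, without TMM factors. The 46 uninjured Opn4-positive cells, of the intrinsically photosensitive kind, stood apart most: a UMI was found in 15.2% for Pou4f1 (95% exact binomial interval 6.34% to 28.9%, counting error only), in 4.35% for Rbpms2 (0.531% to 14.8%), in 71.7% for Isl1 and in 93.5% for Ebf3 (82.1% to 98.6%). In the 1595 Opn4-negative cells the shares were 81.4%, 89.3%, 45.0% and 61.4% for the same genes. In the 35 injured Opn4-positive cells, with injured 4 left out because it shares cells with injured 3, the shares were 2.86% for Pou4f1, 5.71% for Rbpms2, 68.6% for Isl1 and 91.4% for Ebf3. Cells positive for Eomes, a T-box factor of melanopsin and related RGCs, showed a partly similar profile in uninjured samples (61 cells). Pou4f1 was found in 23.0% and Isl1 in 68.9% of them. The share with Rbpms2 was higher than in Opn4-positive cells, at 29.5% (95% exact binomial interval 18.5% to 42.6%). That with Ebf3 was lower, at 75.4% (62.7% to 85.5%). Isl2 was found in 0 of the 61 cells, with a 95% exact binomial limit of 5.87%. In samples with at least 10 Eomes-positive cells, Isl1 was higher in the positive cells in 4 of 4 (165 ± 5.42 against 96.4 ± 29.7 CPM) and Pou4f1 lower in 4 of 4 (52.1 ± 26.5 against 317 ± 46.0 CPM).

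Cells positive for Cartpt, a peptide gene of direction-selective RGCs, made up 27.4% to 39.5% of thinned cells over uninjured samples. How much of this came from free RNA was not bounded. Pou4f3 was higher in Cartpt-positive than in Cartpt-negative cells in 6 of 6 uninjured samples (81.9 ± 16.7 against 20.9 ± 14.1 CPM). So were Rbpms2 (527 ± 126 against 350 ± 73.4 CPM) and Thy1 (632 ± 76.8 against 498 ± 22.1 CPM). Pou4f2 was lower in all 6 (41.9 ± 13.6 against 82.4 ± 18.4 CPM). Cells positive for Foxp2, the forkhead factor of F-type RGCs, held more Pou4f1 (391 ± 41.8 against 259 ± 27.7 CPM) and more Isl2 (61.8 ± 32.8 against 30.9 ± 19.4 CPM) in 5 of 5 uninjured samples. Pou4f3 was higher in cells with the AP-2 factor Tfap2d in 4 of 4 samples (132 ± 10.9 against 36.8 ± 9.93 CPM), and Isl2 in cells with the zinc finger factor Zic1 in 3 of 3 (84.9 ± 26.9 against 32.9 ± 16.9 CPM). Cells positive for Spp1, a gene of alpha RGCs, reached 10 cells in 2 injured samples and in 0 uninjured samples, and there Isl1 was at 104 ± 11.5 against 59.2 ± 9.04 CPM and Ebf3 at 133 ± 43.2 against 396 ± 21.3 CPM. Tbr1-positive and Neurod2-positive cells reached 10 in 1 sample each and are not described further. Cartpt-positive cells numbered 596 in uninjured libraries and 29 in injured 1 to 3, and Cartpt itself fell from 564 ± 318 to 41.8 ± 9.27 CPM, so shares of classes marked by such genes were not compared between conditions.

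**Figure D5:**
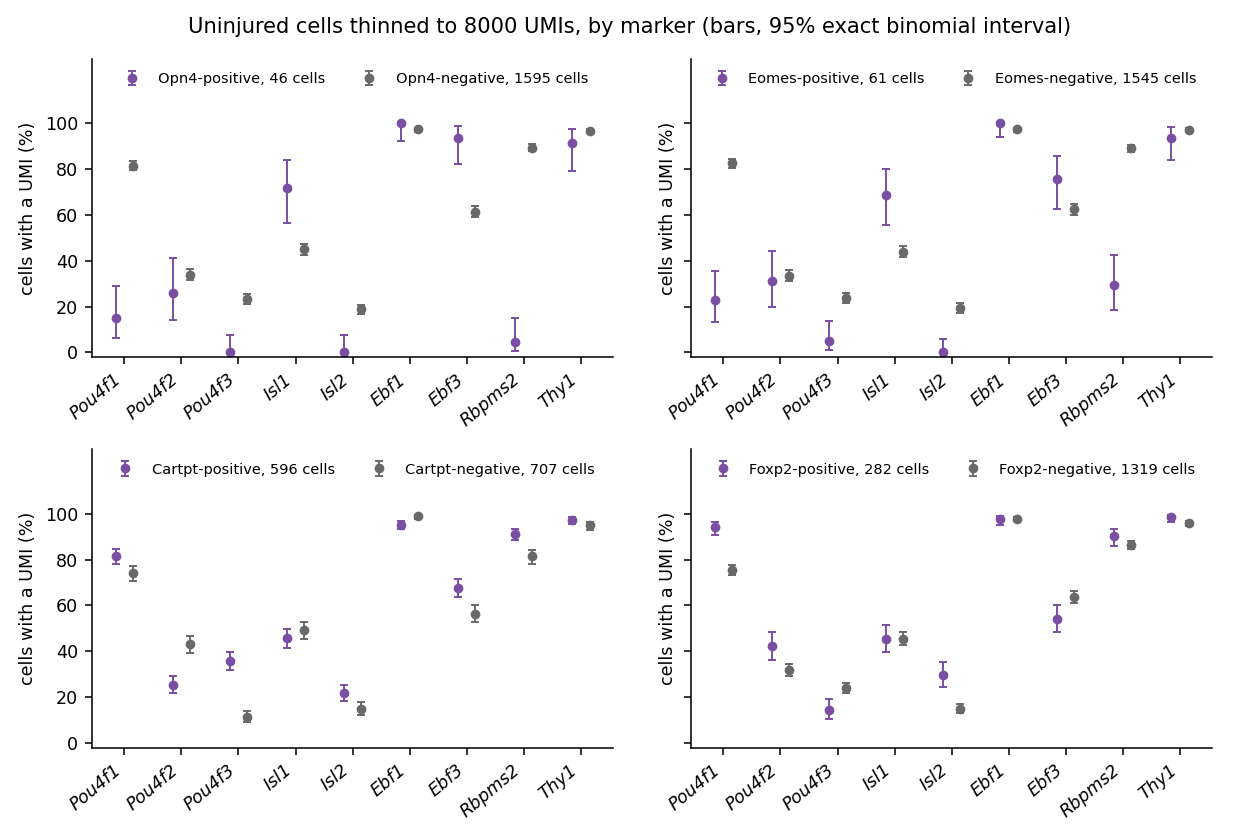
Share of thinned uninjured cells (%) with a UMI of each gene among cells positive (at least 2 UMIs, purple) and negative (0 UMIs, grey) for Opn4, Eomes, Cartpt or Foxp2, pooled over 6 libraries. Bars are 95% exact binomial intervals, which cover counting error only. Pou4f1 and Rbpms2 are low and Isl1 is high in Opn4-positive cells (15.2%, 4.35% and 71.7%).

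The genes most like each member were sought by the mean within-library Pearson correlation of ln(1 + UMI) across thinned uninjured cells, over 8719 genes with a UMI in at least 10% of cells. Cells of a library share depth and capture, so the values are descriptions without a p. Pou4f1 was closest to Trarg1 (r = 0.382), Calb2 (0.380) and the neighbouring D130079A08Rik (0.371), and in injured samples these correlations were 0.0690, 0.131 and 0.276. Pou4f2 was closest to Kcnip4 (0.308), Mid1 (0.270) and Sorcs3 (0.266). For Pou4f3 the nearest were Tfap2d (0.360), Cartpt (0.281) and Syndig1l (0.271), which in injured samples stood at 0.0400, 0.0218 and -0.0914. Isl1 was nearest to Lingo2 (0.411), Rprm (0.390) and Gnai1 (0.377), and these kept values of 0.383, 0.320 and 0.268 after ONC. Isl2 was nearest to Pcdh7 (0.278), Kcnip4 (0.253) and Tagln3 (0.243), Ebf1 to Rbfox1 (0.334) and Ank3 (0.326), and Ebf3 to Fras1 (0.337), Gm26871 (0.312) and Prex2 (0.304). The nearest to Rbpms2 were Calb2 (0.483), Sncg (0.353) and Sptssb (0.300), and to Thy1 the neurofilament genes Nefl (0.282) and Nefm (0.248) with Nrn1 (0.259). Some of these genes fell after ONC beside their member, and others did not follow it: Fras1 fell from 218 ± 53.5 to 29.4 ± 2.98 CPM (-2.89, edgeR adjusted p = 2.57e-06) while Ebf3 rose, and Cartpt fell (-3.75, edgeR adjusted p = 2.95e-04) while Pou4f3 did not pass. Calb2, which encodes the calcium-binding protein calretinin, fell from 5340 ± 1642 to 483 ± 35.7 CPM (log2 fold change -3.47, edgeR adjusted p = 6.13e-06). Trarg1 fell from 222 ± 63.5 to 25.3 ± 2.25 CPM (-3.13, edgeR adjusted p = 3.61e-06) and D130079A08Rik from 480 ± 169 to 32.8 ± 3.47 CPM (-3.87, edgeR adjusted p = 3.77e-06). Sptssb, a subunit of the serine palmitoyltransferase that starts sphingolipid synthesis, fell from 71.4 ± 36.5 to 1.303 ± 0.242 CPM (-5.73, edgeR adjusted p = 7.84e-06).

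Regulators of RGC differentiation outside the 9 genes changed often, mostly downwards. Of 30 listed genes 25 were tested, 16 fell, 6 rose and 3 did not pass, where 22.5% of all genes fell and 21.3% rose (median log2 fold change -0.82, against -0.03 for all genes), and Atoh7, Nhlh1, Dlx1, Dlx2 and Onecut3 were not tested. Sox11, a transcription factor of young neurons, rose from 28.2 ± 4.33 CPM (SD, n = 6) to 1084 ± 86.8 CPM (SD, n = 3), with a log2 fold change of 5.27 (edgeR adjusted p = 1.88e-09). Its relative Sox4 fell from 52.2 ± 3.61 to 9.42 ± 2.57 CPM (-2.48, edgeR adjusted p = 8.71e-07), and Neurod2, a basic helix-loop-helix factor, from 16.2 ± 3.44 to 0.741 ± 0.118 CPM (-4.45, edgeR adjusted p = 3.94e-07). Wt1, a zinc finger factor, had 0 UMIs in uninjured and 232 in injured samples (14.1 ± 5.50 CPM), which against a floor of 3 counts over the uninjured group is at least 247-fold higher. Gfi1, another zinc finger factor, had 125 UMIs in uninjured (2.70 ± 1.41 CPM) and 0 in injured samples, at least 16.4-fold lower. The zinc finger gene Myt1 rose from 13.3 ± 1.90 to 36.2 ± 6.62 CPM (1.43, edgeR adjusted p = 2.22e-05).

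Among POU genes outside the Brn3 class, 6 of 9 were tested, 2 rose, 3 fell and 1 did not pass, where 43.8% of all genes passed (median log2 fold change -0.27), with Pou2f3, Pou3f3 and Pou3f4 not tested. Pou3f1, known as Oct6, rose from 4.94 ± 0.997 to 47.2 ± 2.29 CPM (log2 fold change 3.29, edgeR adjusted p = 2.82e-08) and Pou6f1 from 20.7 ± 2.93 to 30.4 ± 1.89 CPM (0.55, edgeR adjusted p = 0.00847). In cells holding 3 to 5% Malat1 the rise of Pou6f1 was absent (-0.0338, edgeR adjusted p = 0.935, out of 0.00144 to 0.935 over 29 alternatives). Among those that fell, Pou3f2, another POU factor of neurons, went from 6.72 ± 1.38 to 2.36 ± 0.165 CPM (-1.49, edgeR adjusted p = 4.91e-04) and Pou2f2 from 16.1 ± 3.80 to 9.25 ± 2.50 CPM (-0.81, edgeR adjusted p = 0.0179), while Pou2f1 was at 59.1 ± 12.2 and 71.9 ± 5.64 CPM (edgeR adjusted p = 0.208). Pou2f2 passed in 24 of 29 alternatives, with log2 fold changes up to -0.0355 (adjusted p up to 0.963), and 2 to 5 genes of the list passed. All of the EBF genes and partners listed were tested: Ebf4 fell from 13.4 ± 1.17 to 5.47 ± 0.602 CPM (-1.29, edgeR adjusted p = 6.13e-05), Zfp423, an EBF-binding zinc finger protein, from 33.8 ± 8.41 to 18.3 ± 2.35 CPM (-0.90, edgeR adjusted p = 0.00482) and Ebf2 from 11.3 ± 4.00 to 6.02 ± 0.566 CPM (-0.89, edgeR adjusted p = 0.0282), and Zfp521 did not pass (list median -0.90). Ebf2 passed in 19 of 29 alternatives, with adjusted p up to 0.220, and 43.8% of all genes passed. In this family, then, Ebf3 was the member that rose.

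Of 19 LIM domain factors and partners 10 were tested, 3 rose, 1 fell and 6 did not pass, much like the 43.8% that passed over all genes, and 2 to 8 passed over 29 alternatives (median log2 fold change -0.42), and the 9 not tested were all Lhx or Lmx genes. Ssbp3, a protein of the LIM cofactor complex, rose from 113 ± 14.0 to 206 ± 11.5 CPM (0.86, edgeR adjusted p = 2.34e-04), and the LIM-only genes Lmo1 (63.2 ± 13.8 to 112 ± 9.91 CPM, edgeR adjusted p = 0.00247) and Lmo4 (73.1 ± 14.5 to 102 ± 11.3 CPM, edgeR adjusted p = 0.0411) rose as well. The call of Lmo4 held in 16 of 29 alternatives, with adjusted p from 0.00111 to 0.226. Ldb1, which bridges LIM proteins, fell from 25.3 ± 2.92 to 14.1 ± 2.60 CPM (-0.83, edgeR adjusted p = 0.00138). The calls of Ldb1 and Lmo1 each held in 28 of 29 alternatives and were lost in cells holding 3 to 5% Malat1 (-0.50 with adjusted p = 0.111 and 0.61 with adjusted p = 0.0503). Lhx9 was at 3.72 ± 2.18 and 2.05 ± 1.29 CPM (edgeR adjusted p = 0.208). Of 7 genes known to need Pou4f2 or Isl1 in the developing retina, 5 fell, 1 rose and 1 did not pass (median -0.79), against 22.5% lower and 21.3% higher over all genes. Over 29 alternatives 2 to 6 of these genes passed. Eomes fell from 30.9 ± 19.2 to 12.1 ± 5.23 CPM (-1.32, edgeR adjusted p = 0.0416), Sncg, a synuclein gene enriched in RGCs, from 2185 ± 763 to 1050 ± 300.0 CPM (-1.06, edgeR adjusted p = 0.0166) and the signal gene Shh from 18.5 ± 2.56 to 9.27 ± 1.65 CPM (-0.99, edgeR adjusted p = 7.84e-04), whereas the growth cone gene Gap43 rose from 397 ± 71.7 to 2579 ± 198 CPM (2.70, edgeR adjusted p = 3.37e-07). Sncg passed in 24 of 29 alternatives (adjusted p up to 0.363), and Shh in 28, with -0.17 (edgeR adjusted p = 0.714) in cells holding 3 to 5% Malat1. Eomes passed in only 17 of 29 alternatives (adjusted p 0.0107 to 0.677) and was at 0.45 in cells holding 3 to 5% Malat1.

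Of 12 other general RGC markers, all tested, 5 fell, 3 rose and 4 did not pass, against 43.8% past the threshold over all genes, and 5 to 8 passed over 29 alternatives (median log2 fold change 0.08). The paper used expression of Rbpms, Slc17a6, Sncg and Tubb3 to identify RGCs. All of these genes are in this list, and how much the selection sets their levels was not tested. Nrn1, a surface protein of neurites, fell from 1073 ± 387 to 391 ± 34.8 CPM (-1.46, edgeR adjusted p = 0.00165), and the microtubule genes Stmn2 (1049 ± 145 to 2446 ± 477 CPM, 1.22, edgeR adjusted p = 1.90e-04) and Tubb3 (544 ± 188 to 1262 ± 401 CPM, 1.22, edgeR adjusted p = 0.00412) rose. As context for the state of the cells, 10 of 10 listed injury response genes rose, against 21.3% of all genes (median 3.49). Sprr1a, a cornifin induced in injured neurons, was at 0.0375 ± 0.0736 and 811 ± 163 CPM, the endopeptidase gene Ecel1 at 0.266 ± 0.455 and 843 ± 160 CPM and the transcription factor gene Atf3 at 0.808 ± 0.888 and 800 ± 37.8 CPM. Among 10 immediate early and dissociation stress genes 3 rose, 3 fell and 4 did not pass (median -0.52), where 43.8% of all genes passed. Egr1 rose from 28.2 ± 13.5 to 129 ± 26.6 CPM (2.24, edgeR adjusted p = 3.77e-04), Ier2 from 12.0 ± 8.50 to 47.9 ± 15.5 CPM (2.03, edgeR adjusted p = 0.00309) and Dusp1 from 21.2 ± 12.8 to 61.9 ± 14.0 CPM (1.57, edgeR adjusted p = 0.00642). Fos fell from 87.1 ± 63.3 to 16.6 ± 2.41 CPM (-2.39, edgeR adjusted p = 0.00494), Nr4a1 from 15.9 ± 3.35 to 3.13 ± 1.01 CPM (-2.27, edgeR adjusted p = 3.09e-05) and Fosb from 9.78 ± 7.62 to 2.12 ± 0.790 CPM (-2.25, edgeR adjusted p = 0.0166). In cells holding 3 to 5% Malat1 the fall of Fos was absent (0.17, edgeR adjusted p = 0.735, out of 9.82e-06 to 0.735 over 29 alternatives). That setting also took the call from Nr4a1 (-0.64, edgeR adjusted p = 0.273), which held in 28 of 29, and the call of Fosb held in 26 of 28, with adjusted p from 0.00120 to 0.0847.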

How the data were processed

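The authors aligned reads to mm39 with Cell Ranger 7.0.1, per the submitters' processing notes (the paper's methods name another version), kept the cells they took for RGCs, and deposited a UMI count for each gene in each cell, not normalized. No doublet caller was run, since a limit on UMIs had been applied by the authors. The 9 genes and the lists were chosen with earlier results of these data known.

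Sums per library were made in Python 3.11.15 (numpy 2.4.6, pandas 2.3.3, scipy 1.17.1) and the fit used edgeR 4.0.16 under R 4.3.3 (default filterByExpr, TMM, robust quasi-likelihood fit, condition as the only term). Standard errors came from the F statistic of each gene and its fold change, and the test was tested on simulated data. The comparison of single cells in the paper was replaced by these sums because cells of 1 library are not replicates. Shares, patterns and counts of factors were compared over samples with an exact two-sided permutation test (random seed 1 for thinning). Positions, exons and sequences come from GENCODE release M39 on GRCm39, and proteins were not analysed here.

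From each list the 3 largest rises and the 3 largest falls past the threshold were named, with all tested genes of a member's family, and for each member the 3 genes most correlated with it, and some of these are not shown. The 8 lists were RGC differentiation regulators, POU genes outside Brn3, LIM domain factors and partners, EBF genes and partners, genes that need Pou4f2 or Isl1, other RGC markers, injury response, and immediate early and dissociation stress genes. Alternatives, 26 planned and 3 added after the data were seen (pairs of similar uninjured libraries left out), comprised DESeq2 1.42.0, limma 3.58.1 (voom with sample quality weights), other scalings, filters, sets of cells and samples, and each sample left out in turn. A group at 0 was given a floor of 3 counts, and 95% intervals of shares are binomial, so each covers only counting error.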

Additional observations from a re-analysis of the deposited data

Results flagged for a closer look

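In 44 groups of 6 uninjured values (levels, shares, patterns and UMIs per positive cell), 4 had a sample far from the other 5, where chance gives about 1 in 20 groups. All 4 were in uninjured 1, the library with the fewest cells (98). Its thinned share of cells with Pou4f2 was 16.8%, and the next lowest sample was at 32.0%. Isl1 was at 60.0 CPM there and at 117 CPM in the next lowest sample. The share of cells with Isl1 alone was 21.1% against 34.8% in the next lowest sample, and the number of Pou4f3 UMIs per positive cell was 2.15 against 1.75 in the next highest. Without uninjured 1 the mean share of cells with Pou4f2 was 34.0% against 6.44% in injured samples, the log2 fold change of Isl1 was -1.02 (edgeR adjusted p = 4.17e-04), and Isl1 alone was found in 37.5% against 26.5% of cells (exact p = 0.0357, the smallest possible, against 0.119 with it). For Pou4f3 UMIs per positive cell the other 5 samples (1.53 to 1.75) still lay above the injured samples (at most 1.50). Groups of 3 injured samples were not looked at in this way.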

How the results depend on the processing

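Pou4f1, Pou4f2 and Rbpms2 kept their direction and their call in all 29 alternatives, with log2 fold changes of -1.61 to -1.27, -2.77 to -1.97 and -3.72 to -3.20. Isl1 passed in 26, Isl2 in 28, Ebf3 in 26, Ebf1 in 6, Thy1 in 2 and Pou4f3 in 0. For the other named genes over all alternatives, the direction or call was the same 1001 times, weaker 51 times, stronger 3 times and reversed 3 times.

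With cells of 3 to 5% Malat1 UMIs, 3516 genes and 3 of the 9 genes passed, against 6237 and 6. In that setting Ebf3 was at -0.12, Pou6f1 at -0.0338, Eomes at 0.45 and Fos at 0.17, Isl1 (-0.37, edgeR adjusted p = 0.451) and Isl2 (-1.13, edgeR adjusted p = 0.0794) were not past the threshold. That setting kept 7 and 8 cells in uninjured 5 and 6, and the cause of the change was not tested. With similar libraries summed 4191 genes passed. With each sample left out in turn 4947 to 6404 genes and 4 to 6 of the 9 genes passed, 5 to 7 thinned shares and 6 to 11 patterns did not overlap, and the change in the number of factors was -0.823 to -0.738. The share with Pou4f3 then changed by -0.392 to 2.72 points, Pou4f1 with Pou4f3 alone by -1.15 to 0.874 points and neither Ebf gene by -0.208 to 0.118 points.

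No setting moved the median log2 fold change of all genes by more than -0.07 (library totals alone, where 42.1% of called genes rose, against 48.6%, and 44.3% with upper-quartile factors). Pou4f3 was at 0.00838 with libraries 1 to 4 and no replicate block, at 0.0328 with the library number as a replicate block, and at 0.0268 without uninjured 5 and 6, a setting chosen after the data were seen. Deviations of same-numbered libraries from their group means had correlations of -0.0561, 0.0142, -0.0276 and -0.0519. Those of all uninjured with injured libraries 1 to 4 lay between -0.0669 and 0.117. Because close libraries within each group shape these deviations, the values cannot decide whether the numbers pair the libraries. The replicate block gave 7782 genes against 8230 without it.

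Without thinning the changes in percentage points were -3.32 for Pou4f3, 5.50 for Pou4f1 with Pou4f3 alone, 9.37 for Pou4f1 alone, 0.759 for Pou4f2 with Pou4f3 alone (exact p = 0.0238), 0.206 for Pou4f2 alone and 0.412 for neither Ebf gene. With at least 2 UMIs they were -0.800 for Pou4f3 and 2.01 for neither Ebf gene, and the latter was 1.41 with 4000 UMIs and 0.278 in cells without markers of another class. The cause of these changes was not tested.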
